A study of Homo sapiens with 38 samples.

Results

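The 8 genes described here encode proteins that luminal prostate epithelium carries on its surface or secretes: FOLH1, STEAP1, STEAP2, SLC45A3, TMPRSS2, NCAM2, ACP3 and MSMB. They were taken from the 60252 genes of each expression table by matching Ensembl identifiers to these symbols, and all 8 were found. The prostate gland is lined by a luminal layer that secretes seminal proteins over a basal layer that expresses keratins of stratified epithelium. Luminal cells depend on androgen and on factors such as FOXA1 and HOXB13, and several luminal surface proteins are used to image or target prostate cancer. The products of FOLH1 (prostate-specific membrane antigen) and STEAP1 are targets of that kind.

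The libraries come from a study of the 7p15.2 segment of chromosome 7, which carries inherited risk of prostate cancer, and of HOXA13, a homeobox factor encoded nearby. C4-2B, a prostate cancer line derived from LNCaP and grown in RPMI with serum, gave 9 RNA-seq libraries of 3 lines with the region deleted (m, ld9 and le5) and 9 of 3 control lines labelled wild type after genome editing. RWPE-1, an immortalized line of normal prostate epithelium grown in serum-free keratinocyte medium, gave 3 libraries of cells that had received a HOXA13 vector against 3 that had received eGFP alone, and 7 libraries with the region deleted against 5 controls, labelled genome edited and wild type. Sorting 48 hours after transfection kept the 10% of cells brightest for eGFP in both of these groups. The deleted C4-2B lines are single clones: the tetraploid cells were edited in successive rounds, the 2 colonies edited again gave the 3 full deletion clones, and 2 of these had received the same first guide pair. Which lines share a colony, and whether each control line is a clone, is not stated. The origin of the RWPE-1 libraries in separate clones or cultures is not stated either, so p-values measure the spread between libraries, which may be technical.

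Values are in TPM, the share of all transcripts that a gene takes, corrected for transcript length, so levels of different genes can be set side by side within a table. TPM keeps no record of depth, and the depth of each library is unknown here. The authors' comparison tables give only a mean normalized count per gene over their libraries. The C4-2B and RWPE-1 tables were deposited separately, and levels set across them carry no test. Between 13661 and 15256 genes reached 1 TPM in a library. Library 1 of C4-2B control line 3 stood apart, with 28.4% of its TPM in mitochondrially encoded genes against 10.8% to 16.6% in the other C4-2B libraries. Results that rest on it are given with and without it. HOXA13 stood at 684 to 842 TPM in HOXA13-transfected cells against 1.79 to 3.77 TPM with eGFP, and at 5.27 to 10.1 TPM in deleted RWPE-1 cells against 0.65 to 2.41 TPM in their controls. In C4-2B it averaged 0.964 ± 0.0246 TPM in deletion lines and 1.28 ± 0.427 TPM in control lines (SD of line means, n = 3 each).

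All 9 luminal factors on a list reached 1 TPM in every C4-2B library. Of 15 basal markers 5 to 6 reached 1 TPM in C4-2B control libraries and 5 in C4-2B deletion libraries. KRT5, the main basal keratin, was listed at 0 in every C4-2B library but 1, where it stood at 0.14 TPM. In RWPE-1 between 14 and 15 of 15 basal markers reached 1 TPM, while luminal factors did so for 6 to 9 of 9 with HOXA13, 6 with eGFP, 4 to 5 in deletion libraries and 4 in controls. The luminal keratin and adhesion genes overlapped between the lines in summed TPM. Their sums were 897 to 1222 TPM with HOXA13 and 934 to 1019 TPM with eGFP. RWPE-1 deletion libraries held 555 to 846 TPM and their controls 333 to 700.2 TPM. C4-2B deletion libraries held 965 to 1141 TPM and C4-2B control libraries 525 to 1229 TPM. All 7 of these genes reached 1 TPM in every C4-2B library. In RWPE-1 6 to 7 did so with HOXA13, 6 with eGFP and 3 to 5 in deletion and in control libraries. By the counts of these lists at 1 TPM, the luminal label fits C4-2B better than RWPE-1. The keratin and adhesion sums do not separate the lines.

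Sequences upstream of the gene starts are shown for STEAP1 and STEAP2, neighbours on chromosome 7 of which only STEAP2 had no overlap between groups in C4-2B. Of all genes, 0.405% had deletion libraries all above control libraries there. RefSeq (build GRCh38.p14, while the deposited files use GRCh37) held an upstream window for 5 of the 8 genes: STEAP1, STEAP2, SLC45A3, NCAM2 and ACP3. Each window holds the 250 bases before the start, in gene direction. All 3 windows below lie on the plus strand, that of STEAP1 at chr7:90154219-90154468, that of the upstream STEAP2 start at chr7:90211490-90211739 and that of a further STEAP2 start at chr7:90213570-90213819. Capitals mark matches to a forkhead core, GTAAACA or TGTTTAC, and to a core bound by HOX13 factors, CAATAAA or TTTATTG, searched on both strands.
STEAP1: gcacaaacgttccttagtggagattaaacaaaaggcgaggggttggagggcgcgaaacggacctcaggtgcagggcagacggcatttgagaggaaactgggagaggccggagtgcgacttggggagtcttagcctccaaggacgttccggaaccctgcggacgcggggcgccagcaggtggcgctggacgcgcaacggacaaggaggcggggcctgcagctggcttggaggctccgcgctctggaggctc
STEAP2 upstream start: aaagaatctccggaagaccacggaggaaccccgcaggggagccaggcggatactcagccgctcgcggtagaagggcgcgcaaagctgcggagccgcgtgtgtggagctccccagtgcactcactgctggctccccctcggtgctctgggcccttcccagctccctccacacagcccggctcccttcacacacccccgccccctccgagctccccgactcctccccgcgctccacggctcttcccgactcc
STEAP2 further start: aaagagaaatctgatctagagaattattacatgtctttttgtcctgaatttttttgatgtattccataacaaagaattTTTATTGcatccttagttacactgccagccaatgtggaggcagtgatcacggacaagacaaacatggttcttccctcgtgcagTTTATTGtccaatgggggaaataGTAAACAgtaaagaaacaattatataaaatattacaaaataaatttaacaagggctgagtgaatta
The further STEAP2 start held 1 forkhead match, 66 bases before the start, and 2 HOX13 matches at 172 and 89 bases, while its base composition was 32.8% GC with 2 CpG. The STEAP1 window was 64.4% GC with 21 CpG and the upstream STEAP2 window 69.6% GC with 21 CpG, against medians of 58% and 11 over all windows. The windows of STEAP1, SLC45A3, NCAM2, ACP3 and the upstream STEAP2 start held none of these letters. An androgen receptor half-site, AGAACA or TGTTCT, was searched too and was in no window of the 5 genes. Among 35116 windows of the same length, 2.98% held the forkhead core, 3.67% the HOX13 core and 12.4% that half-site. These rates were not matched for base composition, although the forkhead and HOX13 cores are rich in A and T. The matches found are letters only and show no binding, and their link to transcript levels was not tested.

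In C4-2B, STEAP2, SLC45A3 and NCAM2 had higher line means in all deletion lines than in all control lines, though none passed correction over all genes, and FOLH1 differed most between the control lines themselves. Of the 8 genes, 5 ranked among the abundant transcripts. Over the 18 libraries FOLH1, TMPRSS2, NCAM2, STEAP1 and STEAP2 had a median position between the 96.0 and 98.3 percentile of expressed genes. SLC45A3 stood at the 87.9 percentile. MSMB and ACP3, which encode the secreted proteins, stood at the 52.1 and 45.2 percentile.

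**Figure D1:**
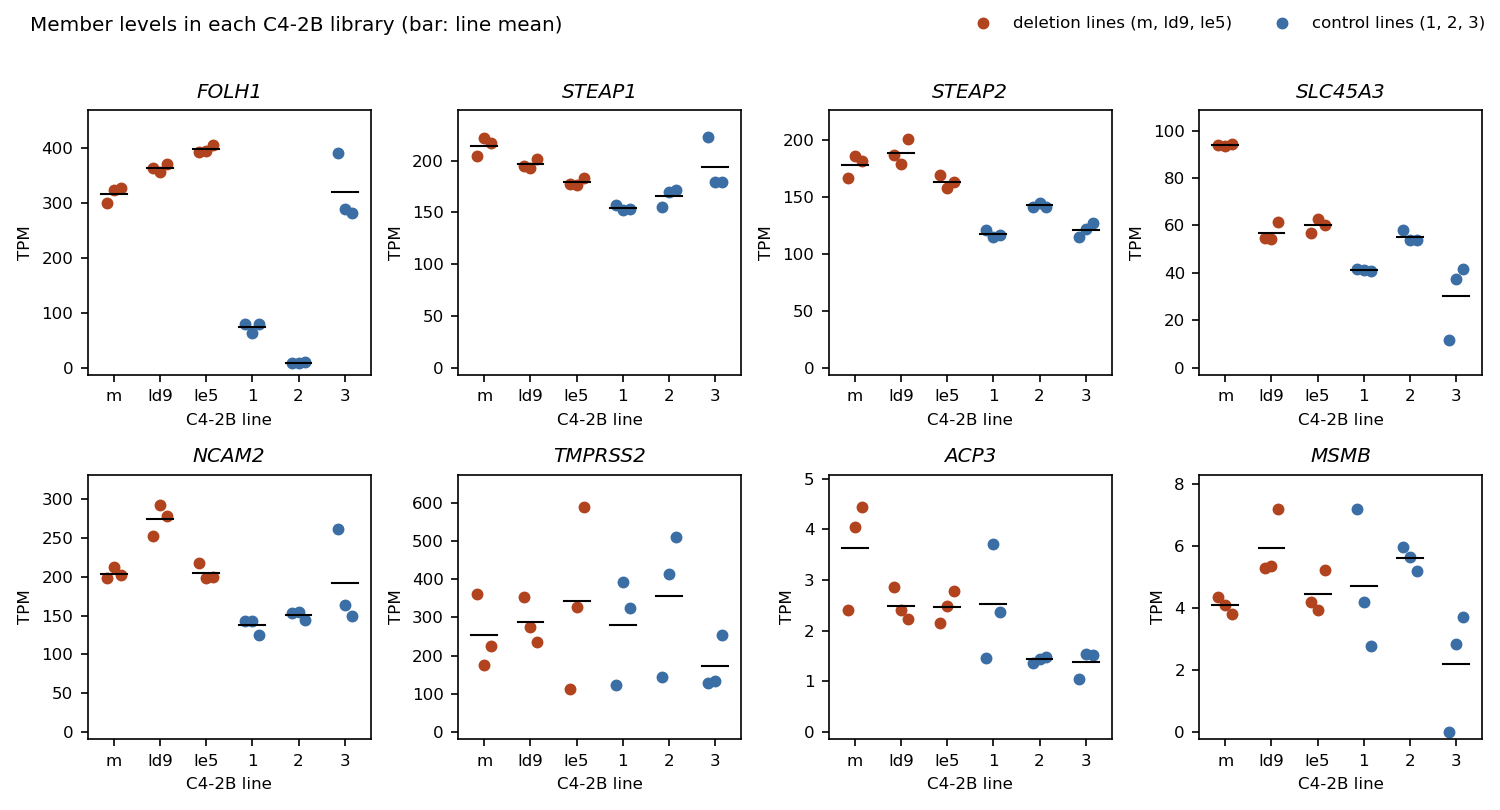
TPM of the 8 genes in each of the 18 C4-2B libraries, by line, with deletion lines m, ld9 and le5 at the left and control lines 1, 2 and 3 at the right; points are libraries and bars are line means. FOLH1 differs most between control lines, STEAP2 is higher in all 9 deletion libraries than in all 9 control libraries, and TMPRSS2 varies most within lines.

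FOLH1, chromosome 11 (ENSG00000086205.16_1), is a surface carboxypeptidase that trims glutamate from folates and small peptides. FOLH1 stood at 299.8, 323 and 328 TPM in the libraries of deletion line m, 364, 356 and 370.5 TPM in line ld9 and 392, 394 and 406 TPM in line le5. In the control lines FOLH1 stood at 79.4, 64.0 and 79.4 TPM in line 1, 8.86, 8.10 and 10.1 TPM in line 2 and 391, 289 and 281 TPM in line 3. Control line 3 lay among the deletion lines, control line 1 far below them and control line 2 lowest of all, so the libraries of the 2 groups overlapped. In bulk RNA, fewer cells carrying a transcript and less of it per cell cannot be told apart. FOLH1 differed 35.5-fold between the highest and lowest control line mean and 1.25-fold between the highest and lowest deletion line mean. Among control lines it had the smallest p of all 15360 genes tested, with line means 4.99 apart on the log2(TPM + 1) scale and a limma F test adjusted p of 1.43e-05. It was the only member of the 8 called there, beside 12.2% of all genes. Leaving out library 1 of control line 3 raised that to 4 members of the 8, FOLH1, STEAP1, STEAP2 and SLC45A3. Calls over all genes rose too, from 1881 to 4854, so the rise was not particular to the members. Among the deletion lines FOLH1 also differed, by up to 0.33 between line means (limma F test, adjusted p = 0.00198). It was 1 of 4 members called there, with STEAP1, SLC45A3 and NCAM2, beside 19.2% of all genes.

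Between deletion and control lines, FOLH1 averaged 359 ± 40.5 TPM in deletion lines and 134 ± 164 TPM in control lines (SD of line means, n = 3 each). The log2 fold change came to 2.53 (SE 1.07) at an unadjusted p of 0.0484 and an adjusted p of 0.993 by limma. Its size rested on single control lines: it was 1.22 without control line 2 and 3.71 without control line 3. UBTFL9, a pseudogene beside FOLH1 that was singled out after its values were seen, showed the same order of control lines. UBTFL9 stood at 2.22, 2.33 and 2.04 TPM in line m, 2.90, 3.63 and 3.13 TPM in line ld9 and 3.28, 4.27 and 4.85 TPM in line le5. In control lines it stood at 0.47, 0.07 and 0.21 TPM in line 1, was listed at 0 in all 3 libraries of line 2, and stood at 1.19, 1.05 and 1.62 TPM in line 3. Here, unlike FOLH1, every deletion library was above every control library. Reads of FOLH1 could be shared with FOLH1B, its near copy on the same chromosome, which stood at 0.47 TPM or below in every C4-2B library. Chromosome 11 as a whole gave a median log2 fold change of 0.060.

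STEAP1 and STEAP2, chromosome 7 (ENSG00000164647.8_1 and ENSG00000157214.13_2), encode membrane proteins of a metalloreductase family; STEAP2 reduces iron and copper, while STEAP1 needs a partner of the family to do so. STEAP1 stood at 205, 222 and 217 TPM in the libraries of deletion line m, 195, 193 and 202 TPM in line ld9 and 178, 176 and 183 TPM in line le5. STEAP1 in the control lines stood at 157, 152 and 153 TPM in line 1, 155, 169 and 172 TPM in line 2 and 223, 179 and 179.7 TPM in line 3. The groups overlapped, since control line 3 reached the deletion lines and its library 1 stood above every deletion library. STEAP1 averaged 197 ± 17.8 TPM in deletion lines and 171 ± 20.4 TPM in control lines (SD of line means, n = 3 each); the log2 fold change came to 0.21 (SE 0.127, limma adjusted p = 0.993). The deletion lines differed among themselves by up to 0.26 (limma F test, adjusted p = 0.00648), with m highest and le5 lowest.

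STEAP2 stood at 167, 186 and 182 TPM in the libraries of deletion line m, 187, 179 and 201 TPM in line ld9 and 169, 158 and 164 TPM in line le5. Control values of STEAP2 stood at 121, 115 and 116.5 TPM in line 1, 141, 145 and 141 TPM in line 2 and 115, 122 and 127 TPM in line 3. All 9 deletion libraries were above all 9 control libraries, and STEAP2 was the only member of the 8 to do so. Across all genes 0.405% had deletion libraries all above control libraries. STEAP2 averaged 177 ± 12.8 TPM in deletion lines and 127 ± 13.6 TPM in control lines (SD of line means, n = 3 each). The log2 fold change came to 0.48 (SE 0.119) at an unadjusted p of 0.00475 and an adjusted p of 0.993 by limma. With the 18 libraries in the fit and the line as a random block, the limma adjusted p was 0.0125 and 24 genes were called, STEAP2 alone among the 8. That fit used 1 correlation between libraries of a line for all genes. STEAP2 varied little within lines and stood at the 70.5 percentile for SD between line means. That SD is taken over deletion and control lines together, so it includes the difference between the groups. Whether the shared correlation holds for STEAP2 was not tested, so this p may be too small. STEAP2 had a within-line SD of 0.0622 in log2(TPM + 1), at the 1.59 percentile of 14791 expressed genes, the lowest of the 8; without library 1 of control line 3 it was 0.0587, at the 7.46 percentile, and STEAP1 was lowest at 0.0474. The median of genes tested on chromosome 7 was 0.075, and CFAP69, the next tested gene beyond STEAP2, gave 0.27 with an unadjusted limma p of 0.189. STEAP2-AS1, an antisense gene at this locus, stood at 1.14 TPM or below, but whether counting used the strand is not stated.

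SLC45A3, chromosome 1 (ENSG00000158715.5_1), encodes prostein, a membrane transporter of luminal prostate cells whose gene responds to androgen. SLC45A3 stood at 93.8, 93.4 and 94.5 TPM in the libraries of deletion line m, 54.6, 54.5 and 61.2 TPM in line ld9 and 57.0, 62.7 and 60.2 TPM in line le5. In the control lines SLC45A3 stood at 41.6, 41.1 and 40.6 TPM in line 1, 57.9, 54.0 and 53.9 TPM in line 2 and 11.8, 37.4 and 41.8 TPM in line 3. Line m was the highest and library 1 of control line 3 the lowest. Library 1 of control line 2 lay within the range of lines ld9 and le5 and its other libraries just below it, although no control line mean reached a deletion line mean. SLC45A3 averaged 70.2 ± 20.6 TPM in deletion lines and 42.2 ± 12.5 TPM in control lines (SD of line means, n = 3 each). The log2 fold change came to 0.78 (SE 0.292) at an unadjusted p of 0.0299 and an adjusted p of 0.993 by limma; it was 0.60 without library 1 of control line 3 and 0.56 without line m. Among the deletion lines SLC45A3 differed by up to 0.72 (limma F test, adjusted p = 1.62e-04).

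NCAM2, chromosome 21 (ENSG00000154654.14_1), encodes a neural cell adhesion molecule of the immunoglobulin family. NCAM2 stood at 198, 212 and 202 TPM in the libraries of deletion line m, 252, 293 and 279 TPM in line ld9 and 217, 198 and 199.8 TPM in line le5. Control values of NCAM2 stood at 144, 144 and 125 TPM in line 1, 154, 154 and 144 TPM in line 2 and 262, 164 and 149 TPM in line 3. The line means did not overlap, but library 1 of control line 3 stood among the libraries of line ld9. NCAM2 averaged 228 ± 40.4 TPM in deletion lines and 160 ± 28.3 TPM in control lines (SD of line means, n = 3 each). The log2 fold change came to 0.52 (SE 0.167) at an unadjusted p of 0.0153 and an adjusted p of 0.993 by limma, and it was 0.61 without that library. NCAM2 differed among the deletion lines by up to 0.43 (limma F test, adjusted p = 0.00252), with ld9 highest. TMPRSS2 lies on the same chromosome, whose genes had a median log2 fold change of 0.029.

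TMPRSS2, also on chromosome 21 (ENSG00000184012.11_2), encodes a serine protease of the cell surface whose androgen-driven promoter is often fused to ERG in prostate cancer. TMPRSS2 stood at 361, 174 and 226 TPM in the libraries of deletion line m, 353, 276 and 235 TPM in line ld9 and 113, 327 and 589 TPM in line le5. In the control lines TMPRSS2 stood at 123, 392 and 325 TPM in line 1, 145, 413 and 511 TPM in line 2 and 127, 133 and 255 TPM in line 3. Both groups spanned nearly the whole range, and the lowest and highest of all 18 libraries belonged to line le5. Libraries of line le5 differed 5.19-fold and those of line ld9 1.50-fold. Its within-line SD was 0.802 in log2(TPM + 1), at the 97.1 percentile of expressed genes, against a median of 0.213. This exceeded the SD of 0.331 between line means. In the authors' deposited table the log2 fold change of TMPRSS2 had an SE of 0.177. STEAP1, with a within-line SD of only 0.0859 in TPM, had a like SE there, 0.172. Whether the spread of TMPRSS2 in TPM is also in the counts was not tested. TMPRSS2 averaged 295 ± 45.1 TPM in deletion lines and 269 ± 92.8 TPM in control lines (SD of line means, n = 3 each); the log2 fold change came to 0.20 (SE 0.229, limma adjusted p = 0.993). Without control line 3 the value was -0.062. ERG stood at 0.08 TPM or below in every C4-2B library.

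The secreted proteins were the rarest transcripts of the 8. Their mean normalized counts in the authors' deposited table were 68.8 for ACP3 and 21.5 for MSMB. ACP3, chromosome 3 (ENSG00000014257.15_1), encodes prostatic acid phosphatase. ACP3 stood at 2.40, 4.05 and 4.45 TPM in the libraries of deletion line m, 2.86, 2.40 and 2.23 TPM in line ld9 and 2.16, 2.48 and 2.78 TPM in line le5. ACP3 in the control lines stood at 1.46, 3.72 and 2.38 TPM in line 1, 1.37, 1.44 and 1.49 TPM in line 2 and 1.05, 1.55 and 1.53 TPM in line 3. The groups overlapped through library 2 and library 3 of control line 1, while control lines 2 and 3 lay below every deletion library. ACP3 averaged 2.87 ± 0.663 TPM in deletion lines and 1.78 ± 0.644 TPM in control lines (SD of line means, n = 3 each). The log2 fold change came to 0.50 (SE 0.203) at an unadjusted p of 0.0432 and an adjusted p of 0.993 by limma. Among deletion lines it was called only without library 1 of line m (limma F test, adjusted p = 0.0350, against 0.229 with it).

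MSMB, chromosome 10 (ENSG00000263639.5_1), encodes beta-microseminoprotein, a small seminal plasma protein. MSMB stood at 4.36, 4.09 and 3.83 TPM in the libraries of deletion line m, 5.30, 5.38 and 7.20 TPM in line ld9 and 4.21, 3.95 and 5.23 TPM in line le5. In the control lines MSMB stood at 7.20, 4.21 and 2.78 TPM in line 1, 5.99, 5.64 and 5.21 TPM in line 2 and 0, 2.86 and 3.71 TPM in line 3. The groups overlapped, and MSMB was listed at 0 in library 1 of control line 3. MSMB averaged 4.84 ± 0.988 TPM in deletion lines and 4.18 ± 1.78 TPM in control lines (SD of line means, n = 3 each). Its log2 fold change came to 0.34 (SE 0.338, limma adjusted p = 0.993), against 0.11 without that library and -0.058 without control line 3.

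Deletion line means were all above control line means for 3 of the 8 genes, STEAP2, SLC45A3 and NCAM2, and for 6.86% of all genes. limma called none of the 8, as it called 0 of all 14820 genes. At an unadjusted limma p under 0.05 stood 5 of the 8, FOLH1, STEAP2, SLC45A3, ACP3 and NCAM2, and 3.57% of all genes. All 8 log2 fold changes were above 0, beside a median of 0.068 over all genes. The authors' deposited table, which does not state how libraries of a line were treated, calls 4 of the 8 higher in deletion and 4.34% of its genes with an adjusted p. The authors' deposited table gives ACP3 a log2 fold change of 0.66 (SE 0.123, DESeq2 adjusted p = 8.09e-06) and STEAP2 one of 0.44 (SE 0.103, adjusted p = 7.47e-04). The authors' deposited table further gives SLC45A3 0.69 (SE 0.189, DESeq2 adjusted p = 0.00589) and NCAM2 0.52 (SE 0.166, adjusted p = 0.0247). For FOLH1 the authors' deposited table gives 1.53 (SE 0.632, DESeq2 adjusted p = 0.116), for TMPRSS2 0.16 (SE 0.177), for MSMB 0.17 (SE 0.237) and for STEAP1 0.0042 (SE 0.172).

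**Figure D2:**
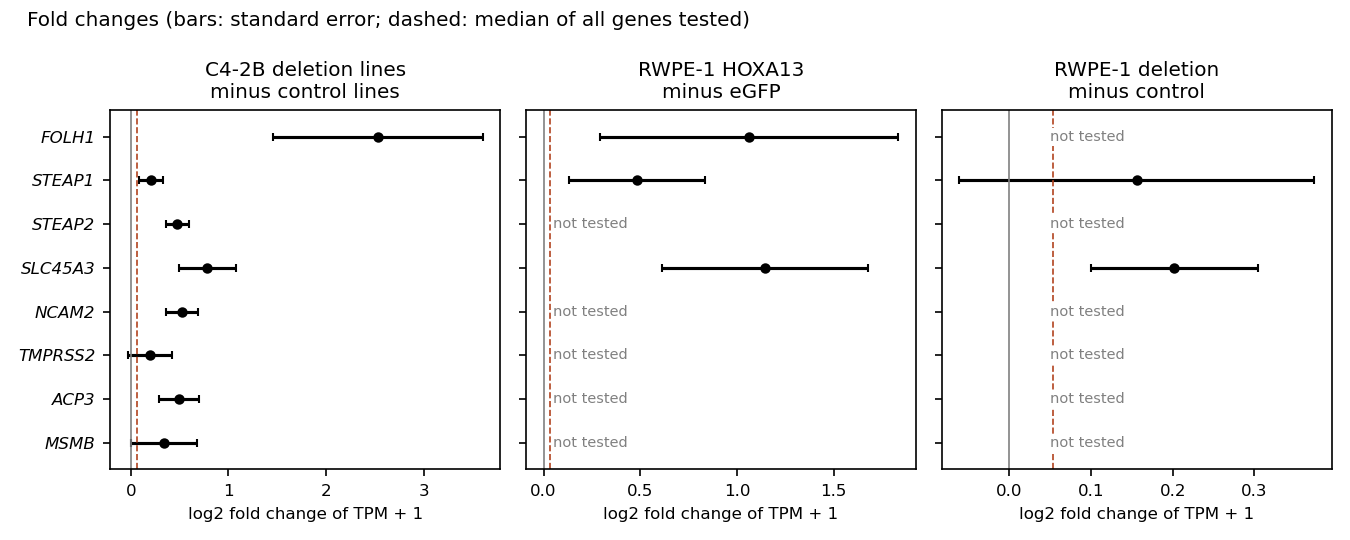
log2 fold changes of TPM + 1 with standard errors from limma, as C4-2B deletion lines minus control lines, RWPE-1 HOXA13 minus eGFP and RWPE-1 deletion minus control; dashed lines are medians of all genes tested and genes under the filter are marked as not tested. The 8 C4-2B values lie between 0.20 and 2.53, and FOLH1 has the widest standard error, 1.07.

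Within C4-2B the 8 genes did not vary as 1 group. FOLH1 had an SD of 2.11 between line means, above 99.95% of expressed genes, with 0.146 within lines. STEAP1 and STEAP2 had SDs of 0.0859 and 0.0622 within lines, and of 0.174 and 0.285 between line means. The SDs between line means take deletion and control lines together, so they include any difference between the groups. SLC45A3 and MSMB had within-line SDs of 0.396 and 0.560, but of 0.0656 and 0.278 without library 1 of control line 3, where they were lowest. TMPRSS2 kept an SD of 0.827 without that library. In the same library FOLH1, STEAP1 and NCAM2 were the highest of their line, so the members moved in both directions with its mitochondrial share; the part of that share in their levels was not tested.

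**Figure D3:**
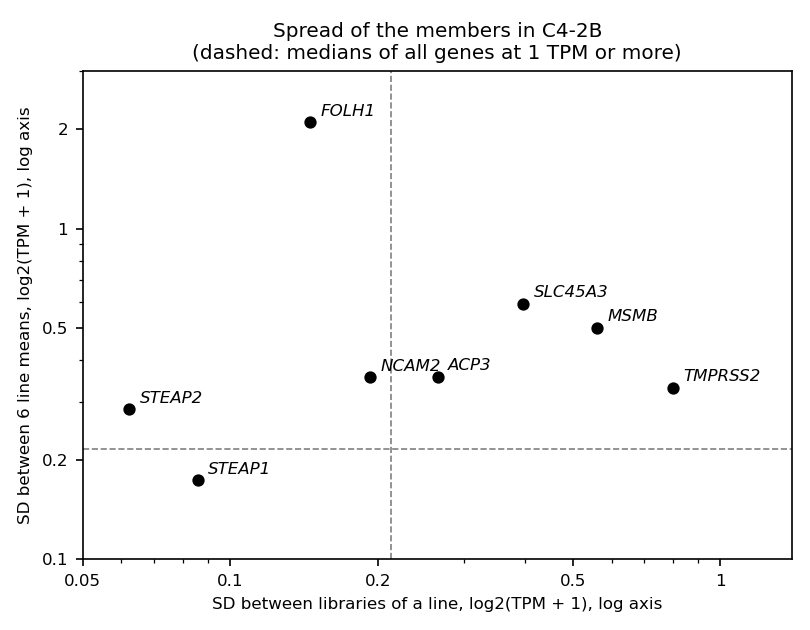
SD between the libraries of a line (x, log axis) and between the 6 line means (y, log axis) of log2(TPM + 1) for the 8 genes in C4-2B; dashed lines are the medians of all genes, 0.213 and 0.215. FOLH1 stands at the top left and TMPRSS2 at the far right.

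Correlations over the 18 C4-2B libraries, which share lines and a table, are given as a description. STEAP1 and NCAM2 had the highest Pearson r of any pair, 0.76, but 0.73 without library 1 of control line 3. STEAP2 and NCAM2 had an r of 0.69, and of 0.90 without that library, then the highest. STEAP1 and STEAP2 had an r of 0.57 with it and 0.83 without it. STEAP2 and SLC45A3 had an r of 0.71 with it and 0.76 without it, and STEAP1 and SLC45A3 0.13 with it and 0.77 without it. SLC45A3 and MSMB had an r of 0.72 with it and 0.10 without it. TMPRSS2 had an r no further from 0 than 0.30 with any other member. After line means were taken out of the 18 libraries, other values were seen. STEAP2 and NCAM2 then had an r of -0.32, STEAP1 and STEAP2 -0.068 and STEAP1 and SLC45A3 -0.84. STEAP1 and NCAM2 had 0.77, STEAP2 and SLC45A3 0.47 and SLC45A3 and MSMB 0.90. These values include library 1 of control line 3. Among all genes at a mean of 1 TPM or more, those closest to each member were as follows, with r after line means were taken out in parentheses. For FOLH1 they were ACTL6A at 0.89 (0.56), TPD52L1 at 0.89 (-0.25) and TRGC1 at 0.88 (0.35). For STEAP1 they were FAM111A at 0.88 (0.66) and SMS at 0.86 (0.71), and for STEAP2 WTAP at 0.93 (0.39), GNB4 at 0.93 (0.36) and BEX3 at 0.92 (0.50). The likeness of FOLH1 and STEAP2 to their closest genes was thus lower within lines than over lines. For SLC45A3 the closest were PCCA-DT at 0.97 (0.96), SLC44A4 at 0.96 (0.98) and FAM24B at 0.95 (0.92), and for MSMB GCHFR at 0.96 (0.94), SEPTIN8 at 0.95 (0.94) and CDK20 at 0.95 (0.92). Without library 1 of control line 3 the r values ran from 0.86 to 0.93 for SLC45A3 and from 0.76 to 0.83 for MSMB. NCAM2 was closest to RNF115 at 0.90 (0.88), TCEAL9 at 0.89 (0.59) and BANK1 at 0.87 (0.85), and ACP3 to ORC5 at 0.86 (0.66), EIF2S1 at 0.85 (0.63) and HOXB6 at 0.83 (0.76). For TMPRSS2, SLC2A3 had an r of 0.78 (0.84), between 2 identifiers with no matched name at 0.79 and 0.77.

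Other luminal genes gave the setting, with lists chosen when earlier results were known. Of 9 luminal factors tested in C4-2B limma called 0, with a median log2 fold change of 0.18; CREB3L4 gave 0.43. Of 9 tested genes for other secreted luminal proteins it also called 0, with a median of 0.37; KLK3, which encodes prostate-specific antigen, gave 0.37 and KLK2 0.64. PIP had the smallest unadjusted p of that list, 0.0417, at -1.45. Of 28 androgen-responsive genes it called 0 as well, with a median of 0.20. Of 11 tested relatives of the members it called 0, with a median of 0.062. limma also called 0 of 7 luminal keratin and adhesion genes, 5 basal, 4 mesenchymal and 1 neuroendocrine gene tested. Among the control lines, where 12.2% of all genes were called, it called 1 of 9 luminal factors, 4 of 9 secreted proteins, 6 of 28 androgen-responsive genes and 1 of 7 keratin and adhesion genes, 2 of 4 mesenchymal genes and the 1 neuroendocrine gene, but none of 5 basal genes or 11 relatives. Among the deletion lines, where 19.2% of all genes were called, it called 5 of 9 luminal factors, 6 of 9 secreted proteins and 17 of 28 androgen-responsive genes. It also called there 3 of 5 basal genes, 3 of 7 keratin and adhesion genes, 5 of 12 relatives, 1 of 4 mesenchymal genes and the 1 neuroendocrine gene, so lists of other cell types held calls too. The sum of the 8 genes was 1133 to 1609 TPM in deletion libraries and 670 to 1130 TPM in control libraries. The androgen-responsive genes summed to 7254 to 9452 TPM in deletion libraries and 4405 to 8141 TPM in control libraries. The sums of the 8 genes rest mainly on the abundant members. The 2 kinds of sum did not run in parallel over libraries. Library 3 of line le5 had the highest sum of the 8 genes, 1609 TPM, with 7466 TPM of androgen-responsive genes. TMPRSS2 alone held 589 TPM of that 1609 TPM, against 113 TPM in the lowest library of the line. Line m had the highest sums of androgen-responsive genes, 9151 to 9452 TPM, with 1218 to 1330 TPM of the 8. Library 1 of control line 3 had the highest sum of the 8 genes among controls, 1130 TPM, and the lowest androgen-responsive sum, 4405 TPM. FOLH1 alone held 391 TPM of that 1130 TPM.

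In RWPE-1 cells the same genes stood low, and their sums were higher in the transfected and sorted cells than in the edited and control cells. Over the 18 libraries STEAP1 and SLC45A3 had a median position at the 41.4 and 40.6 percentile of expressed genes. The 8 genes summed to 8.41 to 64.3 TPM with HOXA13 and 7.23 to 8.27 TPM with eGFP, and to 1.35 to 3.96 TPM in deletion and 1.20 to 2.71 TPM in control libraries. The pairs of groups differ in transfection and sorting, and no test was made between them.

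**Figure D4:**
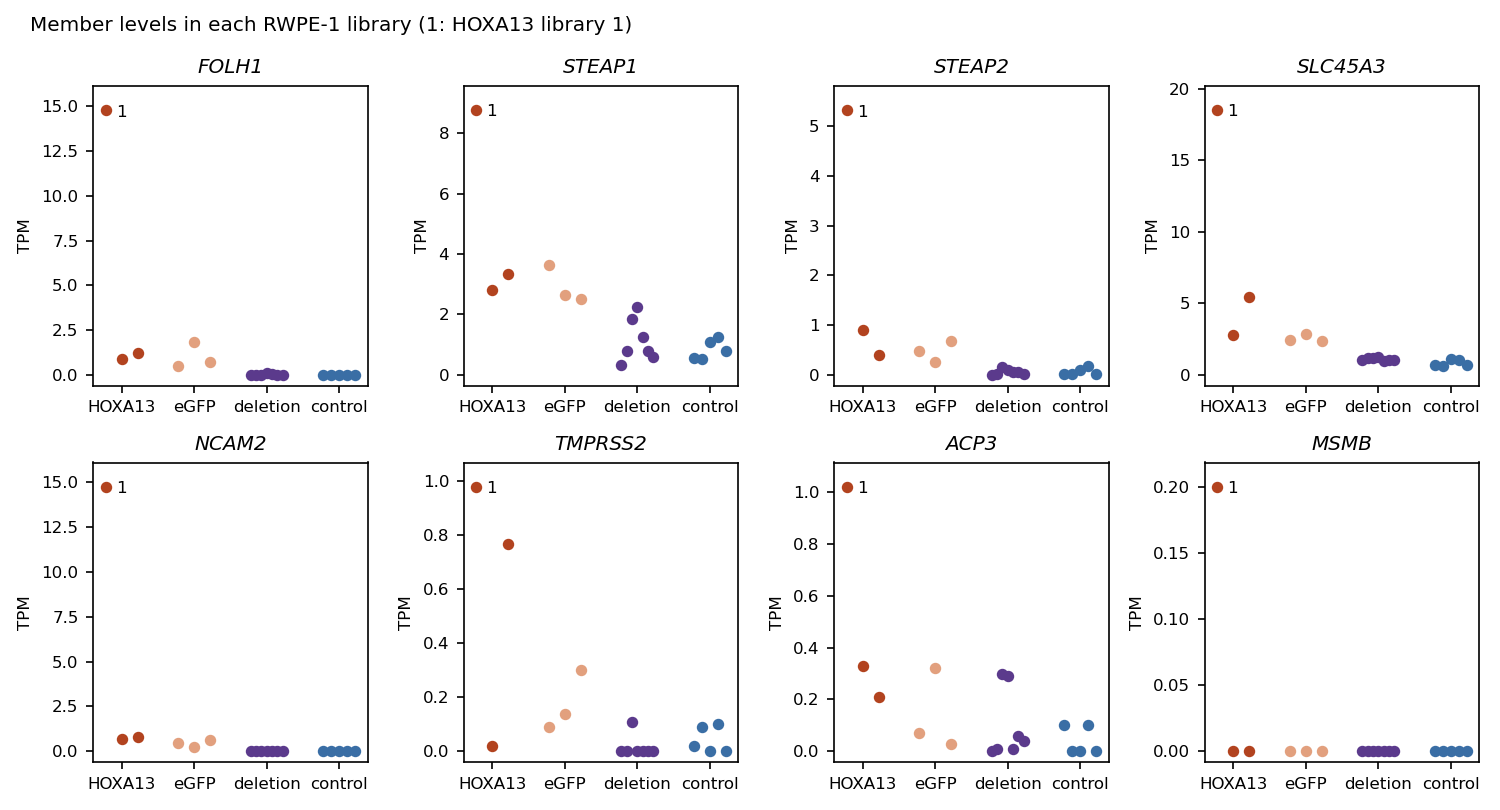
TPM of the 8 genes in each RWPE-1 library, with HOXA13 left of eGFP and deletion left of control; each point is a library and 1 marks HOXA13 library 1. That library is the highest of all 18 for each of the 8 genes.

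FOLH1 stood at 14.8, 0.91 and 1.22 TPM with HOXA13 and 0.50, 1.84 and 0.72 TPM with eGFP. Library 1 stood far above the rest, and the other HOXA13 libraries overlapped the eGFP libraries. The log2 fold change came to 1.06 (SE 0.771, limma adjusted p = 0.570), and 0.084 without library 1. STEAP1 stood at 8.77, 2.80 and 3.33 TPM with HOXA13 and 3.62, 2.63 and 2.50 TPM with eGFP. The groups overlapped, and the log2 fold change came to 0.48 (SE 0.351, limma adjusted p = 0.570), and 0.062 without library 1. SLC45A3 stood at 18.5, 2.77 and 5.43 TPM with HOXA13 and 2.41, 2.83 and 2.36 TPM with eGFP. Only library 2 lay within the eGFP range; the log2 fold change came to 1.14 (SE 0.534, limma adjusted p = 0.405), and 0.48 without library 1.

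The other 5 genes did not pass the filter of 1 TPM in 3 libraries, so no test was made. NCAM2 stood at 14.7, 0.68 and 0.81 TPM with HOXA13 and 0.46, 0.26 and 0.63 TPM with eGFP. These groups did not overlap, nor did those of 12.4% of the genes tested in the same direction. STEAP2 stood at 5.32, 0.90 and 0.39 TPM with HOXA13 and 0.48, 0.25 and 0.69 TPM with eGFP, and TMPRSS2 at 0.98, 0.02 and 0.77 TPM with HOXA13 and 0.09, 0.14 and 0.30 TPM with eGFP. ACP3 stood at 1.02, 0.33 and 0.21 TPM with HOXA13 and 0.07, 0.32 and 0.03 TPM with eGFP. These 3 overlapped. MSMB was listed at 0 in every RWPE-1 library but HOXA13 library 1, where it stood at 0.20 TPM. limma called 0 of the 3 tested members, beside 0.0135% of all genes, 2 of 14814; 13.5% of all genes stood at an unadjusted p under 0.05, and none of the 3 did. The authors' deposited table gives SLC45A3 a log2 fold change of 0.20 (DESeq2 adjusted p = 0.169) and STEAP1 one of 0.22 (adjusted p = 0.329), and gives FOLH1, NCAM2 and STEAP2 no p. These log2 values are on a smaller scale than the TPM ratios: the authors' deposited table gives HOXA13 itself 2.08, where the log2 ratio of mean TPM was 8.13, and the log2 ratios were 1.81 for SLC45A3 and 0.77 for STEAP1. The authors' deposited table thus calls neither, beside 12.1% of its genes with an adjusted p.

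Of the lists, 6 luminal factors were tested with a median log2 fold change of 0.73, beside 0.036 over all genes, and limma called 0. Without library 1 that median was 0.38. FOXA1 gave 1.54, and 0.64 without library 1, and GATA2 gave 0.40, and 0.28 without it, at unadjusted limma p-values of 0.0578 and 0.0226 with it. It likewise called 0 of 5 secreted proteins (median 0.29, and 0.090 without library 1), 24 androgen-responsive genes (0.012), 6 keratin and adhesion genes (0.16, and -0.0095 without library 1), 15 basal (-0.041), 4 neuroendocrine (0.48) and 5 mesenchymal genes (-0.17, and -0.088 without library 1), and 10 relatives (0.090).

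HOXA13 library 1 held luminal transcripts in unequal parts. Relative to the C4-2B control mean, in a table normalized separately, ACP3 reached 57.4%, SLC45A3 43.9%, FOLH1 10.99%, NCAM2 9.22%, STEAP1 5.12%, MSMB 4.79%, STEAP2 4.19% and TMPRSS2 0.364%. The ACP3 share sets 1.02 TPM against 1.78 TPM, both low. All shares use the whole level in library 1. With eGFP alone STEAP1 averaged 2.92 TPM, against 8.77 TPM in library 1, and SLC45A3 2.53 TPM, against 18.5 TPM. These shares depend on the control line: FOLH1 came to 19.9% of line 1, 164% of line 2 and 4.62% of line 3, SLC45A3 to 33.5% to 61.0%, ACP3 to 40.5% to 74.1%, and MSMB to 3.56% to 9.13% over the 3 lines. FOXA1 stood at 25.4 TPM in that library, 8.93% of the C4-2B control mean. KLK4 stood at 25.5 TPM, 11.8%, whereas KLK2 reached 0.277% and KLK3 0.0469%. The library held 164 genes at least 4-fold above every other of the 6 transfected libraries, with 0.25 TPM added to the others, against 35 to 66 in each of the others. Its luminal factors all reached 1 TPM, 9 of 9, against 6 in every eGFP library. Its basal markers summed to 15080 TPM, the lowest of the 6 libraries. HOXA13 libraries 2 and 3 held 15676 and 17035 TPM of these, and the eGFP libraries 16146 to 17009 TPM. The neuroendocrine sum of library 1 was the highest of the 6, 26.7 TPM, against 9.19 to 12.2 TPM with eGFP. Libraries 2 and 3, at 14.8 and 16.1 TPM, were also above every eGFP library. The androgen-responsive sum of library 1 was the lowest of the 6, 1636 TPM. It was 1775 and 1759 TPM in libraries 2 and 3 and 1699 to 1782 TPM with eGFP. The part of other cells or RNA in this library was not tested.

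**Figure D5:**
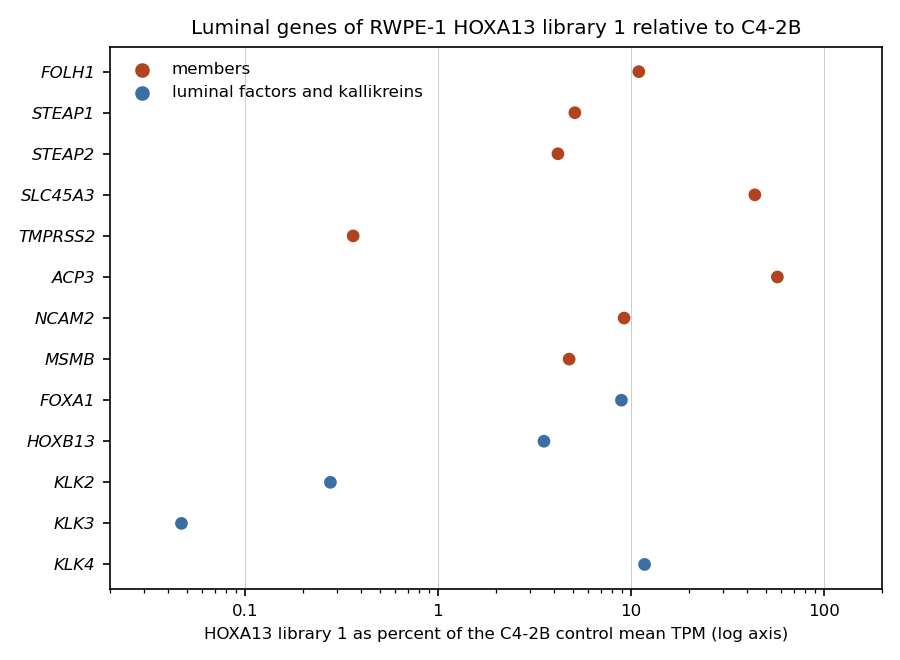
Level in RWPE-1 HOXA13 library 1 as a percent of the mean of the 9 C4-2B control libraries (log axis), for the 8 genes and for luminal factors and kallikreins. ACP3 and SLC45A3 are the highest, at 57.4% and 43.9%, and KLK3 the lowest, at 0.0469%. The ACP3 share sets 1.02 TPM against 1.78 TPM, both low. FOLH1 (10.99%) ranges from 4.62% to 164% over the 3 control lines. Levels with eGFP were not taken off, and the values come from 2 tables normalized separately.

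Deletion of the region in RWPE-1 gave no call in the members. STEAP1 stood at 0.32, 0.79 and 2.24 TPM (lowest, median and highest of 7) in deletion libraries and 0.56, 0.51, 1.07, 1.26 and 0.80 TPM in controls. The control range lay within the deletion range. STEAP1 gave a log2 fold change of 0.16 (SE 0.217, limma adjusted p = 0.685). SLC45A3 stood at 0.96, 1.03 and 1.24 TPM (lowest, median and highest of 7) in deletion libraries and 0.71, 0.59, 1.09, 1.07 and 0.68 TPM in controls. Controls 1, 2 and 5 lay below every deletion library and controls 3 and 4 within their range. It gave a log2 fold change of 0.20 (SE 0.102, limma adjusted p = 0.221). limma thus called 0 of the 2 tested members, beside 10.3% of all 14186 genes; 27.9% stood at an unadjusted p under 0.05, and neither member did. The authors' deposited table gives SLC45A3 0.23 (DESeq2 adjusted p = 0.351) STEAP1 0.19 (adjusted p = 0.694) and STEAP2 -0.0598 (adjusted p = 0.903). The authors' deposited table thus calls none of these 3, beside 17.4% of its genes with an adjusted p.

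The other 6 genes did not pass the filter. STEAP2 reached at most 0.16 TPM in deletion libraries and 0.18 TPM in controls. ACP3 reached at most 0.30 TPM in deletion libraries and 0.10 TPM in controls, and TMPRSS2 0.11 TPM in deletion libraries and 0.10 TPM in controls. FOLH1 reached at most 0.10 TPM in deletion libraries and was listed at 0 in all 5 controls, and NCAM2 reached 0.01 TPM in deletion libraries and was listed at 0 in all 5 controls. STEAP1B, a relative of STEAP1 on the short arm of chromosome 7, was the only called gene of 8 tested relatives. STEAP1B averaged 17.5 ± 2.04 TPM in deletion libraries (SD, n = 7) and 12.4 ± 3.89 TPM in controls (SD, n = 5), rising by 0.50 on the log2 scale (SE 0.146, limma adjusted p = 0.0453). Over all genes 6.46% were called higher and 3.86% lower. Of 4 tested luminal factors 1 rose, GATA2, by 0.75 (limma adjusted p = 0.0137). Of 24 tested androgen-responsive genes 2 rose, EAF2 and HERC3, and 1 fell, FKBP5, a chaperone of steroid receptors, at -0.34 (limma adjusted p = 0.0222). Their median was 0.045, beside 0.054 over all genes. Of 4 tested secreted proteins 1 rose, SPON2, by 2.79 (limma adjusted p = 3.04e-04), and of 4 keratin and adhesion genes 1 fell, the cadherin CDH1, at -1.70 (limma adjusted p = 0.00891). Of 15 basal genes ITGB4 and NGFR fell, of 5 mesenchymal genes THY1 and SPARC fell, and of 3 neuroendocrine genes CHGB rose. The summed TPM of the mesenchymal list was 1948 to 2460 in deletion libraries and 2414 to 3439 in controls, and its part in the members' levels was not tested.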

How the data were processed

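RNA-seq was analysed for 18 RWPE-1 and 18 C4-2B libraries; the Hi-C samples were not used here. The authors list FastQC, Trimmomatic 0.35, STAR 2.5.2b, featureCounts 1.5.1, RSEM 1.3.0 and DESeq2 1.14.1 on GRCh37, per the submitters' processing notes; which tool made which table is not given in the sources used here. The deposited expression tables give TPM for 60252 genes, made by the authors with 1 common sum per library, so no detection limit was computed. The deposited comparison tables hold, per the file headers, the mean normalized count (a signal), the log2 fold change and its SE (a score), a p-value and an adjusted p-value; how the log2 column was estimated is not stated, and in the HOXA13 comparison its values are far smaller than log2 TPM ratios. Gene symbols were matched for 55528 of 60252 identifiers. No library was a copy of another, as any 2 differed in at least 23993 genes.

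limma 3.58.1 in R 4.3.3 was run on log2(TPM + 1) with a mean-dependent prior, two-sided, so fold changes of low genes are understated. Genes at 1 TPM or more in as many libraries as the smaller group (lines for C4-2B) were tested. A call means a Benjamini-Hochberg adjusted p under 0.05 over all genes of the comparison. C4-2B lines were represented by the mean of their libraries, so the line was the replicate. Lines were treated as independent, although the 3 deletion clones came from 2 colonies. Lines were also compared within each arm by an F test over 3 libraries each, which measures only the spread between libraries of a line. The procedure was tested on simulated data. Named throughout are the 8 members, the genes most correlated with each, and up to 4 genes of smallest p from each list of other luminal, secreted, androgen-responsive, basal, neuroendocrine, mesenchymal and related genes; others, such as the kallikreins and the neighbouring genes, were picked after their values were seen. The members, the lists and the promoter motifs were chosen with earlier results of these data known. Alternatives were the added constant, the filter, the scaling, quantile normalization, a replicate block, the samples in the fit, and single libraries or lines left out. The values without library 1 of C4-2B control line 3 for spread and correlation, the lists without HOXA13 library 1 and the shares of each control line were chosen after seeing the data. Results of some genes that the rule for names would have given are not reported here, but they stay in the counts.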

Additional observations from a re-analysis of the deposited data

Results flagged for a closer look

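In the 7 RWPE-1 deletion libraries 3 genes had 1 library far from the others of its group. FOLH1 stood at 0.1 TPM in deletion library 4, at 0.02 TPM in library 5 and was listed at 0 in the other 5. TMPRSS2 stood at 0.11 TPM in deletion library 3 and was listed at 0 in the other 6. NCAM2 stood at 0.01 TPM in deletion library 5 and was listed at 0 in the other 6. All 3 values lie far under 1 TPM. Mean normalized counts in the authors' RWPE-1 deletion table were 0.0844 for FOLH1, 0.0844 for NCAM2 and 0.478 for TMPRSS2. The flagged values thus rest on very few reads. Chance marks about 1 in 20 groups of ordinary values in this way, but where nearly all libraries are listed at 0, any value above 0 stands out, so that rate does not apply here.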

How the results depend on the processing

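The call of 0 members in the RWPE-1 deletion and HOXA13 comparisons held under every alternative tried. In RWPE-1 deletion the replicate block left 449 genes called against 1464 (1072 to 1998 with 1 library left out), and 37.4% of calls were lower, against 53.8% with median-ratio scaling, 47.3% with quantile normalization and 54.3% with the block. For HOXA13 against eGFP, 2 genes were called, against 1 with no filter, 1 with the replicate block, 131 with all 18 libraries in the fit and 1 to 5 with 1 library left out. Between C4-2B deletion and control lines, 0 genes were called, against 6 with no filter, 24 with the line as a random block (1 member, STEAP2) and 0 to 7 with 1 line left out; without control line 3, TMPRSS2 (-0.062) and MSMB (-0.058) turned below 0 (over lines left out TMPRSS2 ran to 0.41 and MSMB to 0.61), and the other 6 members stayed above 0 under every alternative. Among control lines 1881 genes were called, against 1007 with median-ratio scaling, 1044 with quantile normalization, 664 with the replicate block and 643 to 4854 with 1 library left out (1 to 4 members). Among deletion lines 2947 genes were called, and 1956 to 2415 with 1 library left out (4 to 5 members). Samples with the same replicate number did not deviate together (correlations of -0.15 to 0.14), so the numbers do not pair them; the replicate block changed no call of a member. Where a count moved, the cause was not tested. The unknown depth of each library limits what can be said of members below 1 TPM.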
